A study of Homo sapiens with 9 samples.

Results

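The 42 genes described here encode proteins of the nucleolus that make ribosomes: subunits of RNA polymerase I, proteins of small nucleolar ribonucleoproteins (snoRNPs), nucleolar scaffold proteins, and assembly factors of the small (40S) and large (60S) ribosomal subunits. They were selected by symbol from a fixed list, and all 42 were found among the 25540 symbols of the table. The list was chosen with earlier results of these data known, after the libraries labelled replicate 3 had been seen to stand apart. Levels in those libraries are therefore given as a description, with no test.

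The study measured mRNA by RNA sequencing in CAL-1, an established human line of BPDCN (blastic plasmacytoid dendritic cell neoplasm), a blood cancer with features of plasmacytoid dendritic cells. KHSRP, an RNA-binding protein that is known to speed the breakdown of mRNAs carrying AU-rich elements, was lowered by CRISPR interference, in which a catalytically dead Cas9 blocks transcription at a guide RNA's site. The 9 libraries are 3 controls labelled NTC with a wild-type genotype, 3 knockdown libraries labelled KHSRPi#1 and 3 labelled KHSRPi#2. What the 2 numbers mean is not in the labels, and they are taken here as 2 guide RNAs, called guide 1 and guide 2. All libraries share 1 batch in the labels. Nothing in the labels says that replicates were separate cultures, so the p-values measure only the spread between libraries, which may be technical.

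KHSRP itself stood at 253, 244 and 216 TPM in the controls, 35.1 TPM in each guide 1 library, and 35.8, 33.7 and 36.5 TPM with guide 2. TPM, with a fixed sum of 1000000 in each library, is a share of a library's transcripts after correction for transcript length, so levels can be compared between genes and the depth in reads is unknown. The spacing of low values put the relative depth of the replicate 3 libraries at 1.11 to 1.83 times that of NTC replicate 1, and that of the other 6 at 0.979 to 1.54 times. Of 12 listed markers of the cell type, IRF8 was at 2284 to 2824 TPM and TCF4 at 188 to 240 TPM. Mean levels over the 9 libraries were 867 TPM for TCL1A, 234 for CD4, 80.2 for NCAM1 and 69.4 for GZMB. They were 67.5 TPM for CLEC4C, 53.6 for SPIB, 18.3 for NRP1, 16.2 for IRF7 and 0.881 for LILRA4. IL3RA was listed at 0 in all 9 libraries. How reads were counted is not given, so this 0 is not taken as absence of its mRNA. The T cell and erythroid marker lists summed to at most 0.165 TPM and 0.164 TPM in any library.

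Ribosome production starts in the nucleolus, where RNA polymerase I transcribes a long precursor of the ribosomal RNAs. Box C/D snoRNPs guide methylation of the precursor and H/ACA snoRNPs guide the conversion of uridine to pseudouridine. The small subunit processome folds and cuts the part that becomes the 40S subunit, and a separate set of GTPases, helicases, methyltransferases and scaffold proteins assembles the 60S subunit. Many of these genes are textbook targets of the transcription factor MYC, which binds the sequence CACGTG with its partner MAX.

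Because of that motif, the starts of the genes were searched for it. RefSeq windows from 250 bases before to 50 bases after a gene's start (GRCh38.p14) were found for 34 of the 42 genes. TCOF1, NOP58, DDX18, RRS1, BOP1, NOLC1, RRP1B and RRP12 had none. CACGTG, which reads the same on both strands, lay in a window of 17 of these 34 genes (50%). It lay in a window of 13.3% of the 8336 tested symbols with windows, of 27.5% of 109 other ribosome biogenesis genes and of 6.45% of 62 cytosolic ribosomal protein genes. Of the 17 sites, 12 began within the first 50 transcribed bases and 5 lay before the start. The stretches of 6 genes follow, in lower case with the motif in capitals, read 5′ to 3′ on the gene's strand: the 3 most abundant genes that hold it, then NOP2, UTP14A and UTP20, which were picked after their values were seen.
FBL: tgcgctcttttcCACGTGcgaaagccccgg
DDX21: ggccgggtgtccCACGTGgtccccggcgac
GNL3: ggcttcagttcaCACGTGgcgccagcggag
NOP2: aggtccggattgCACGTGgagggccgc
UTP14A: accttgggcCACGTGgaaaccaggggc
UTP20: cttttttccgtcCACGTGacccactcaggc

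The FBL stretch is chr19:39846356-39846385 on the minus strand, with the motif starting at position 7 (transcribed bases count from 1, and bases before the start are negative). DDX21 is chr10:68956604-68956633 (plus strand), with the motif starting at position -31. GNL3 is chr3:52686026-52686055 (plus), with the motif at position 7. The NOP2 stretch, cut short by the window's end, is chr12:6568242-6568268 (minus), with the motif at position 36. UTP14A, cut short by the window's other end, is chrX:129905914-129905940 (plus), with the motif at position -241, and UTP20 is chr12:101280083-101280112 (plus), with the motif at position -10. Other motifs searched on both strands were CACGCG, in 32.4% of the 34 genes and 23.2% of tested symbols, and CCGGAAG, in 32.4% and 24.6%. Neither shared a base with any of the 17 CACGTG sites. These matches describe the letters of the windows only.

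All 42 genes had a mean of at least 1 TPM and were tested. NPM1, NCL and FBL were the most abundant. NPM1, the nucleolar chaperone nucleophosmin (chromosome 5, 171387116 to 171411137 in the hg38 annotation of GENCODE 29, plus strand), stood at 2804, 2994 and 2633 TPM in controls, 3069, 2876 and 2612 TPM with guide 1, and 2943, 2946 and 2489 TPM with guide 2. NCL, nucleolin (chromosome 2, 231453531 to 231483641, minus strand), had 2339, 2478 and 2256 TPM in controls, 2474, 2382 and 2207 TPM with guide 1, and 2496, 2358 and 2115 TPM with guide 2. FBL, the methyltransferase of box C/D snoRNPs (chromosome 19, 39834458 to 39846414, minus strand), had 783, 743 and 757 TPM in controls, 807, 819 and 749 TPM with guide 1, and 786, 783 and 749 TPM with guide 2. For NPM1 and NCL the lowest library of every group was replicate 3, whereas the control and knockdown values of all 3 genes overlapped. NPM1 and other members have near-identical processed copies in the genome, and the sources used here do not give how the authors' counting split such reads.

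At the low end were POLR1A, the catalytic subunit of RNA polymerase I, at a mean of 24.5 ± 2.68 TPM (SD over 9 libraries), and UTP15 of the small subunit processome at 22.5 ± 1.68 TPM. PPAN, a 60S assembly factor, was lowest at 3.71 ± 0.516 TPM. Its value is uncertain, because the gene overlaps a readthrough transcript with its neighbour P2RY11. The 42 genes together held 1.02% to 1.19% of the TPM of a library.

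**Figure D1:**
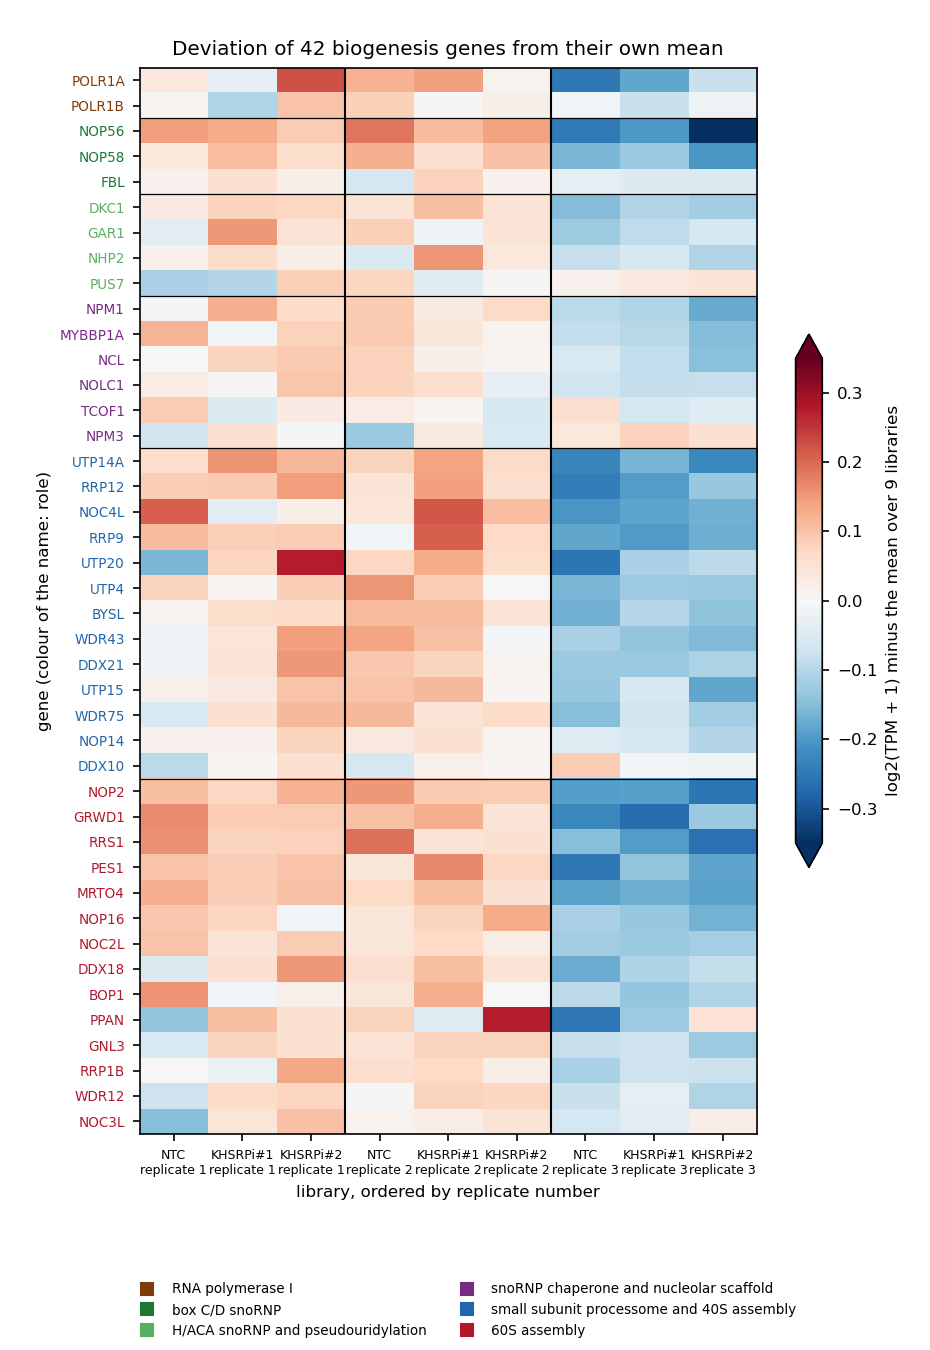
Heat map of log2(TPM + 1) minus the gene's own mean over 9 libraries, for 42 genes (rows, grouped by role) in libraries ordered by replicate number (columns). The 3 columns of replicate 3 are below the mean for most genes, while NTC and knockdown columns within a replicate number look alike.

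The study set KHSRP knockdown against control to find differentially expressed genes. No member of the ribosome production line passed the test in either direction. With limma and Benjamini-Hochberg adjustment over 10939 symbols, 0 of the 42 had an adjusted p under 0.05 for the mean of the guides, where 0.0823% of all tested symbols passed. The same count was 0 for guide 1 (0.0548% of all), 0 for guide 2 (0.0548% of all) and 0 for guide 2 against guide 1 (0% of all). At an unadjusted p under 0.05 the count was also 0 in these 4 comparisons, where 7.93%, 5.24%, 6.93% and 1.05% of all tested symbols lay. The lowest adjusted p among members was 0.646 for the mean of the guides, for TCOF1.

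The sizes were small. The median log2 fold change of the 42 genes on the log2(TPM + 1) scale was 0.02, the same to 2 decimals as the median of all tested symbols, and 24 of 42 values were above 0. Single values ran from -0.10 for RRS1 to 0.17 for UTP20. The 95% intervals of all members lay between -0.33 and 0.38 for the mean of the guides. They lay between -0.35 and 0.39 for guide 1, between -0.41 and 0.49 for guide 2 and between -0.39 and 0.41 for guide 2 minus guide 1. Differences beyond these bounds lie outside the interval of every member. The 14 genes of 60S assembly had a median of 0.01, the 13 of the small subunit processome and 40S assembly 0.02, the 4 of H/ACA snoRNPs and pseudouridylation 0.04 and the 6 scaffold and chaperone genes -0.02. The other two roles lay closer to 0.

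No member had all 6 knockdown libraries above all 3 controls, where 3.1% of all tested symbols did, or all 6 below, where 1.57% did. That count changed with the libraries used, and so did the share of all tested symbols. With replicates 1 and 2 alone, all 4 knockdown libraries were above both controls for 8 genes (DDX10, DKC1, FBL, GNL3, NHP2, NOC3L, NPM3 and WDR12), where 11.4% of all tested symbols were, and below both for 3 (MYBBP1A, NOP56 and RRS1), where 8.96% were. Without NTC replicate 3, the 6 knockdown libraries were above both other controls for 2 genes (DDX10 and NPM3), where 8% of all tested symbols were, and below both for 3 (MYBBP1A, NOP56 and RRS1), where 4.7% were. Without NTC replicate 2, they were above for 3 (NOC3L, PPAN and UTP20), where 9.52% were, and below for 1 (TCOF1), where 3.84% were. The genes listed for these counts were named after their values were seen.

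The 4 genes with the highest fold changes were UTP20, PPAN, NOC3L and DDX18. UTP20, a large protein of the small subunit processome (chromosome 12, 101280109 to 101386616, plus strand), was at 40.5, 47.7 and 37.9 TPM in controls, 47.9, 49.7 and 41.8 TPM with guide 1, and 55.1, 47.4 and 42.4 TPM with guide 2. Guide 2 replicate 1 was the highest library, and 3 of the 6 knockdown libraries lay above the highest control. Its log2 fold change was 0.17 ± 0.10 (SE), with an adjusted p of 0.715 in limma. PPAN (chromosome 19, 10106289 to 10111634, plus strand) had 3.25, 3.94 and 2.93 TPM in controls, 4.03, 3.54 and 3.29 TPM with guide 1, and 3.86, 4.66 and 3.85 TPM with guide 2. The groups overlapped here too (log2 fold change 0.16 ± 0.10 SE, adjusted p = 0.742, limma).

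NOC3L, which works with NOC2L in 60S assembly (chromosome 10, 94333226 to 94362959, minus strand), had 54.0, 60.6 and 57.5 TPM in controls, 61.8, 60.97 and 58.5 TPM with guide 1, and 64.5, 61.9 and 60.96 TPM with guide 2. Only guide 1 replicate 3 lay below the highest control, and the log2 fold change was 0.10 ± 0.05 (SE, adjusted p = 0.661, limma). DDX18, an RNA helicase of 60S assembly (chromosome 2, 117814650 to 117832379, plus strand), had 217, 235 and 200 TPM in controls, 234, 242 and 209 TPM with guide 1, and 251, 233 and 212 TPM with guide 2. Its lowest library in each group was replicate 3, and its log2 fold change was 0.08 ± 0.07 (SE, adjusted p = 0.812, limma).

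The 4 lowest fold changes belonged to RRS1, TCOF1, MYBBP1A and BOP1. RRS1, which helps bring the 5S ribonucleoprotein into the 60S precursor, had 132, 135 and 106 TPM in controls, 125, 122 and 103 TPM with guide 1, and 125, 122.8 and 98.5 TPM with guide 2. Within each replicate number both knockdown libraries were below the control, while across numbers the groups overlapped. Its log2 fold change was -0.10 ± 0.10 (SE, adjusted p = 0.845, limma). TCOF1, treacle, a scaffold that ties RNA polymerase I to snoRNP chaperones (chromosome 5, 150357629 to 150400308, plus strand), had 101, 96.5 and 98.7 TPM in controls, 91.8, 95.5 and 90.8 TPM with guide 1, and 96.7, 91.2 and 91.9 TPM with guide 2.

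TCOF1 varied little between libraries of a group, and only guide 2 replicate 1 lay above the lowest control. Its log2 fold change was -0.09 ± 0.04 (SE, adjusted p = 0.646, limma). MYBBP1A, a nucleolar protein linked to ribosomal RNA transcription and processing (chromosome 17, 4538897 to 4555631, minus strand), had 68.3, 66.9 and 59.1 TPM in controls, 62.3, 64.6 and 58.6 TPM with guide 1, and 66.4, 63.4 and 56.4 TPM with guide 2. BOP1, which forms the PeBoW complex of 60S assembly with PES1 and WDR12, had 121, 111 and 102 TPM in controls, 108, 118 and 98.6 TPM with guide 1, and 110, 108 and 101 TPM with guide 2. Both overlapped between groups, with log2 fold changes of -0.06 ± 0.07 and -0.05 ± 0.07 (SE) and adjusted p values of 0.851 and 0.882 in limma.

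**Figure D2:**
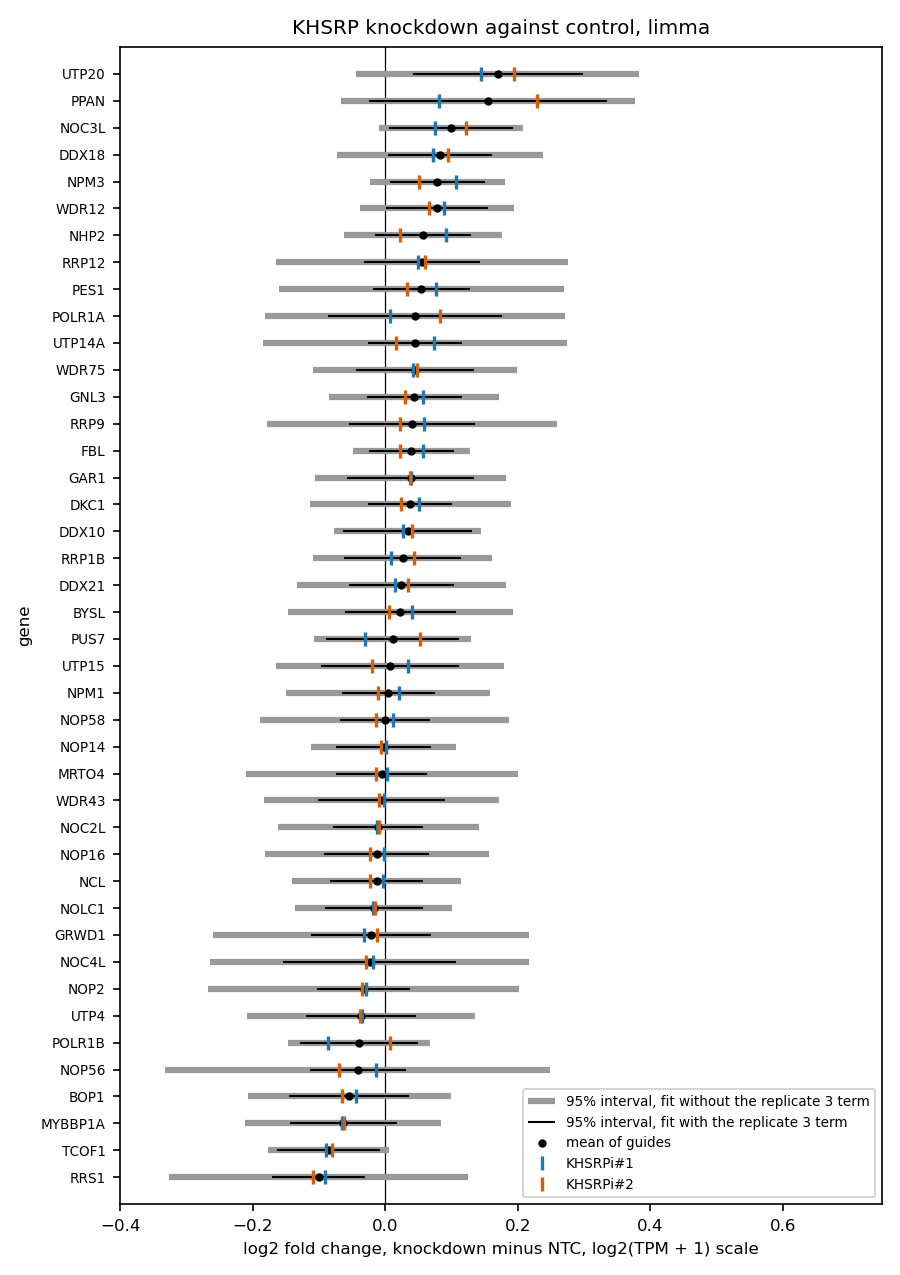
Log2 fold change of each of 42 genes, knockdown minus NTC on the log2(TPM + 1) scale, with points for the mean of the guides, coloured ticks for each guide, grey 95% limma intervals, and black intervals from the fit with a replicate 3 term. Every grey interval crosses 0, from the lowest bound of -0.33 to the highest of 0.38.

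A fit with a term for replicate 3 narrowed the median SE of a member's log2 fold change from 0.07 to 0.04, without a call. With that term limma called 0 of the 42, against 1.76% of all tested symbols, and the lowest adjusted p was 0.140, for RRS1. At an unadjusted p under 0.05 it held 7 of the 42 (RRS1, UTP20, NPM3, TCOF1, DDX18, NOC3L and WDR12), where 17.5% of all tested symbols lay. Intervals in that fit lay between -0.17 and 0.33 over all members. Within replicate numbers, the mean of the 2 guides was above the control of the same number in all 3 numbers for 10 of 42 genes, where 23.3% of all tested symbols were, and below in all 3 for 6, where 16.1% were. In the last 3 counts the members' share was near that of all symbols.

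The libraries labelled replicate 3 were then set against replicates 1 and 2 within each group. Most of the 42 genes were lower there, by a similar amount in controls and with either guide. The median log2 difference was -0.19 in NTC, -0.19 with guide 1 and -0.19 with guide 2, beside a median of 0.03 over all tested symbols, which was 0.00 after either rescaling (median ratios or quantiles) while that of the members was -0.22 and -0.17. The mean difference was below 0 for 39 of the 42 genes, where it was for 42.3% of all tested symbols, and for 38 it was below 0 in every group, where 26.5% were. For 32 of the 42, all 3 replicate 3 libraries lay below the other 6, where 11% of all tested symbols did. For 0 they lay above, where 16.5% did. With median ratios 34 lay below, where 1754 of 10939 tested symbols did, and 0 above, where 1513 did. With quantiles 31 lay below, where 1708 did, and 1 above, where 1490 did. The summed level of the 42 genes was 10204 to 10531 TPM in the replicate 3 libraries and 11375 to 11895 TPM in the others, with no overlap. In bulk RNA, fewer cells of a kind and less RNA per cell cannot be told apart, and TPM shows only shares of a library.

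NOP56, a core protein of box C/D snoRNPs (chromosome 20, 2652145 to 2658393, plus strand), differed most. It had 301, 311 and 279 TPM in replicate 3 of NTC, guide 1 and guide 2, and 395, 407, 391, 386, 380 and 394 TPM in the other 6 libraries. Every replicate 3 value lay below the lowest of the others, with a mean log2 difference of -0.40 and a mean TPM 75.7% of that of replicates 1 and 2. NOP2, a methyltransferase of the large subunit's ribosomal RNA (chromosome 12, 6556863 to 6568691, minus strand), had 109, 109 and 104 TPM in replicate 3 and 131 to 139 TPM in the others, a log2 difference of -0.32.

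GRWD1, a chaperone in 60S assembly (chromosome 19, 48445773 to 48457022, plus strand), had 58.1, 56.5 and 62.2 TPM in replicate 3 and 70.5 to 76.6 TPM in the others, a log2 difference of -0.31. UTP14A of the small subunit processome (chromosome X, 129906121 to 129929761, plus strand) had 72.4, 75.8 and 72.6 TPM in replicate 3 and 88.7 to 94.9 TPM in the others, also -0.31. In all 4 genes the gap between the sets of libraries was wider than the range among replicates 1 and 2 of any group. RRS1 (log2 difference -0.30) and PES1 (-0.29) came next.

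**Figure D3:**
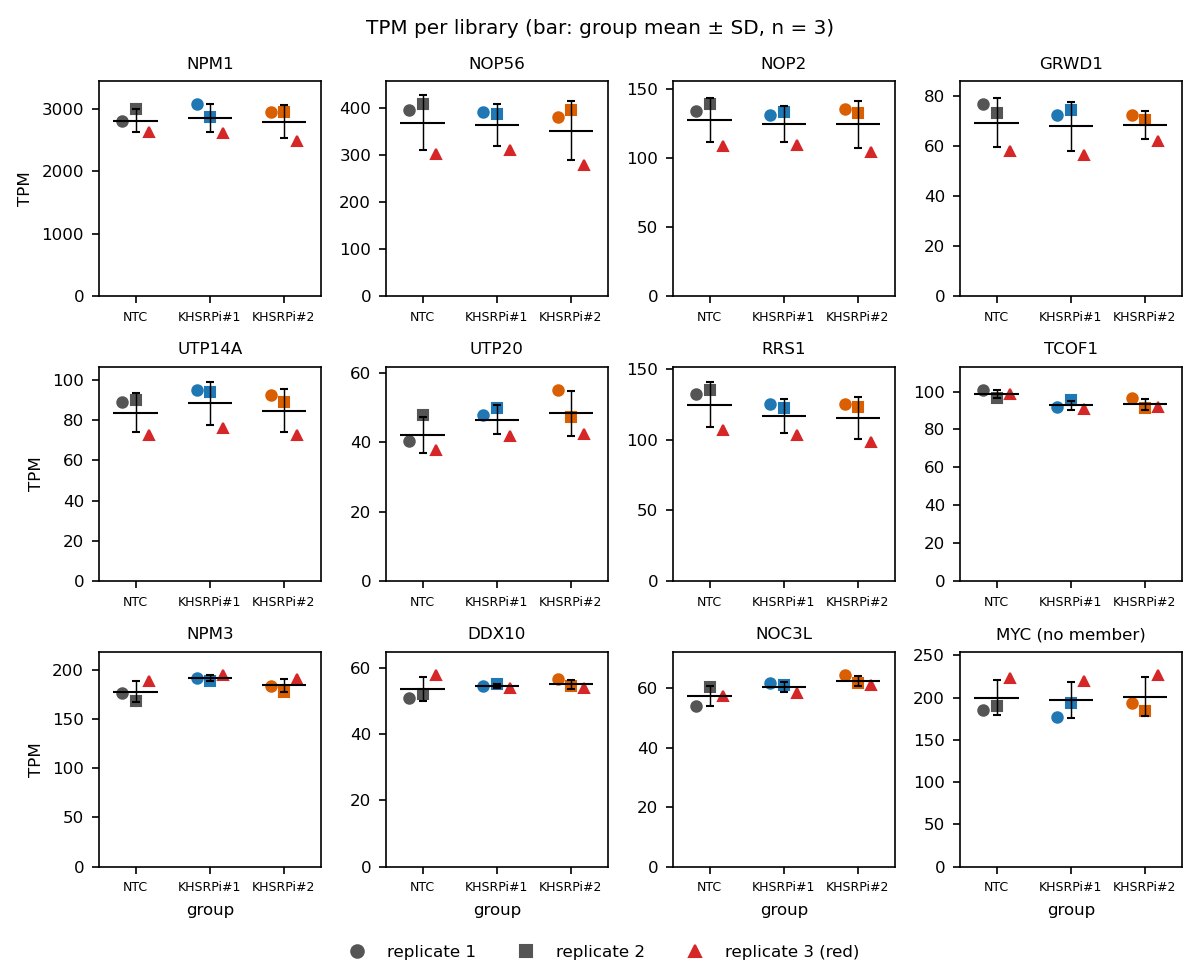
TPM in each library for 11 of the genes and for MYC, by group, with group mean and SD (n = 3) as black bars and replicate 3 as red triangles. Red triangles lie below the other points in NPM1, NOP56, NOP2, GRWD1, UTP14A and RRS1 and above them in MYC, while TCOF1, DDX10 and NOC3L show no separation.

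Each of the 6 roles held genes whose 3 replicate 3 libraries all lay below the other 6, here called separated. In the small subunit processome and 40S group the median log2 difference was -0.20, and 11 of 13 genes separated. These include UTP4 (-0.21), WDR43 (-0.20), WDR75 (-0.17) and UTP15 (-0.18) of the early-binding UTP-A complex, RRP9 of the U3 snoRNP (-0.28), NOC4L (-0.28), NOP14 (-0.10), RRP12, an export factor (-0.28), BYSL, bystin (-0.20), and the helicase DDX21 (-0.19). UTP20 had the size of the others (-0.23), but its guide 1 and guide 2 replicate 3 libraries were both above NTC replicate 1.

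In 60S assembly the median was -0.18 and 11 of 14 genes separated. All 3 proteins of the PeBoW complex were lower, by -0.29 for PES1, -0.16 for BOP1 and -0.11 for WDR12, although WDR12 overlapped. MRTO4 (-0.27), NOP16 (-0.21), NOC2L (-0.19), DDX18 (-0.18), the GTPase GNL3, nucleostemin (-0.14), and RRP1B (-0.13) separated, and PPAN (-0.16) overlapped. NOC3L, the partner of NOC2L, was closer to 0 (-0.04) and overlapped.

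The box C/D proteins ranged widely. NOP58 (-0.25) was lower, like NOP56, while FBL, their enzyme, was at -0.07 and overlapped. Of the H/ACA proteins, DKC1, the pseudouridine synthase (-0.19), GAR1 (-0.14) and NHP2 (-0.12) separated. PUS7, a pseudouridine synthase that works without a guide RNA, was above 0 in each group, with a mean of 0.05. RNA polymerase I subunits were at -0.25 for POLR1A and -0.05 for POLR1B. Among scaffold and chaperone genes NPM1 (-0.19), MYBBP1A (-0.17), NCL (-0.14) and NOLC1 (-0.12) separated.

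The genes without a lower level were few. NPM3, a nucleoplasmin relative of NPM1, had 189, 195 and 191 TPM in replicate 3 and 168 to 191 TPM in the others, a log2 difference of 0.08 in the direction opposite to NPM1. The level of guide 1 replicate 1, at 191 TPM, reached into the range of replicate 3. TCOF1 was within 0.05 of 0 in each group, with a mean of -0.03. DDX10, a helicase of the small subunit processome (chromosome 11, 108665025 to 108940930, plus strand), had 50.9, 52.0 and 57.9 TPM in NTC, 54.7, 55.0 and 54.0 TPM with guide 1, and 56.6, 54.6 and 53.9 TPM with guide 2. Its replicate 3 library was highest in NTC and lowest with both guides, for a mean log2 difference of 0.03.

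**Figure D4:**
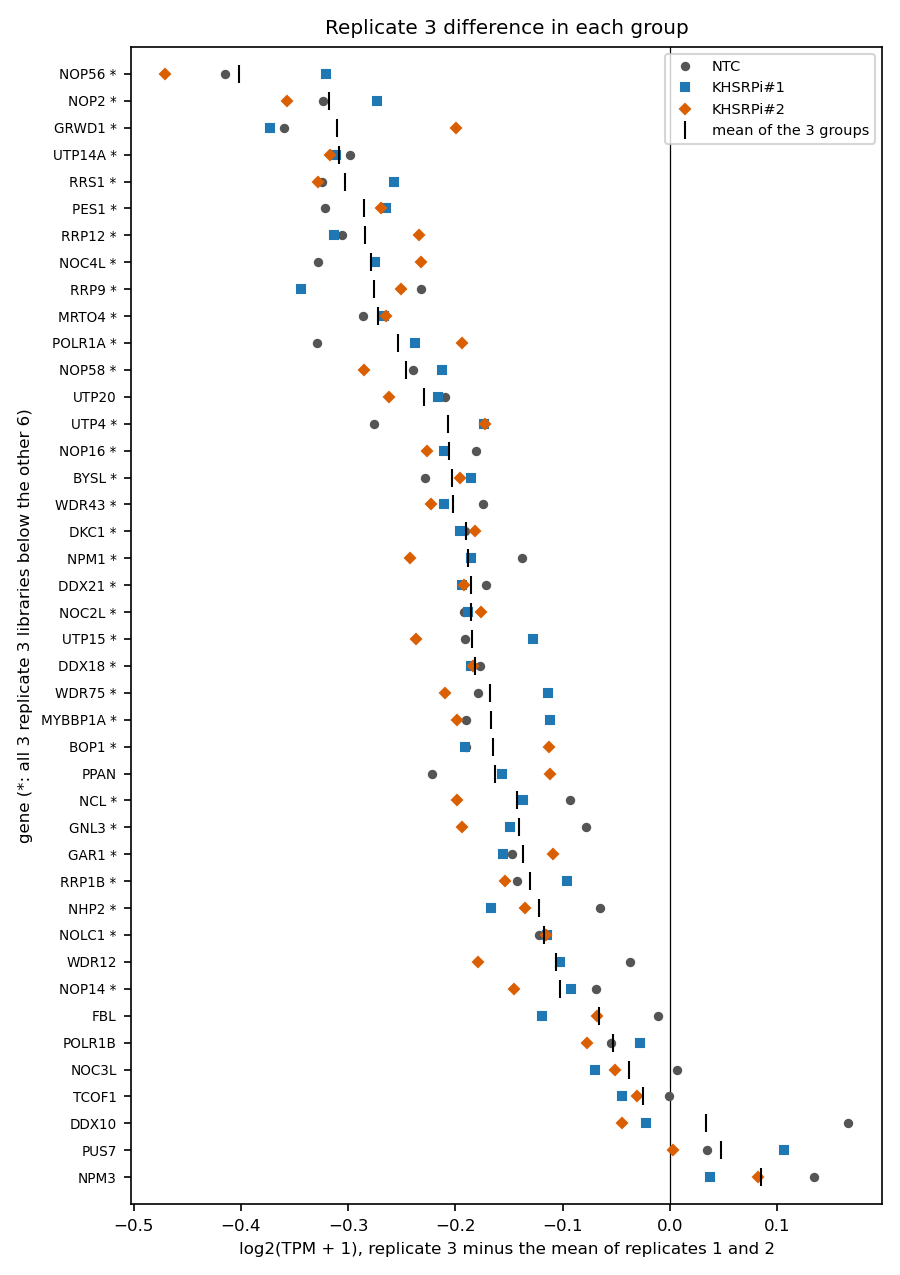
Log2(TPM + 1) in replicate 3 minus the mean of replicates 1 and 2, for each gene (rows, sorted by the mean) in NTC, guide 1 and guide 2 (symbols), with black ticks for the mean. A star marks the 32 genes whose replicate 3 libraries all lay below the other 6, and only DDX10, PUS7 and NPM3 have a mean above 0.

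Replicates 1 and 2 of a group were close. The median absolute log2 difference between them was 0.06 over the 42 genes, smaller than the replicate 3 difference of most members, and 0.09 over all tested symbols. The genes also moved together across libraries: over the 861 pairs of members the median correlation of log2(TPM + 1) across 9 libraries was 0.75, with 749 pairs above 0. Across the 6 libraries of replicates 1 and 2 it was 0.14. These libraries share the split and a fixed sum, so the correlations are only a description. Across the 42 genes the mean level in log2 TPM and the replicate 3 difference had a correlation of 0.04.

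Beyond the 42, 124 other genes of ribosome production were taken from lists by step. No other gene of these lists was called for the mean of the guides (limma, 0 of 124), where 0.0823% of all tested symbols were. An unadjusted p under 0.05 was held by 4, where 7.93% of all tested symbols lay. With the replicate 3 term limma called 0, where 1.76% of all passed, and 15 had an unadjusted p under 0.05, where 17.5% lay. In the replicate 3 libraries the median log2 difference of the 124 genes was -0.13. Of them 58 separated downwards, where 11% of all tested symbols did, and 5 upwards, where 16.5% did. The 46 other small subunit processome genes had a median of -0.15 (28 separated downwards), the 49 other 60S assembly genes -0.13 (23), the 18 other RNA polymerase I genes -0.10 (6) and the 11 other snoRNP genes -0.02 (1). Genes of the finished ribosome differed from these in value: the 78 cytosolic ribosomal protein genes had a median of 0.00 (-0.03 with median ratios and 0.01 with quantiles), with 3 separated downwards and 4 upwards. Their summed level was 257085 to 266256 TPM in replicate 3 and 250730 to 269853 TPM in the others, which overlap. The 77 mitochondrial ribosomal protein genes had a median of -0.04 (-0.07 with median ratios and -0.03 with quantiles). Of them 16 separated downwards (20.8%, where 11% of all tested symbols did) and 3 upwards.

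**Figure D5:**
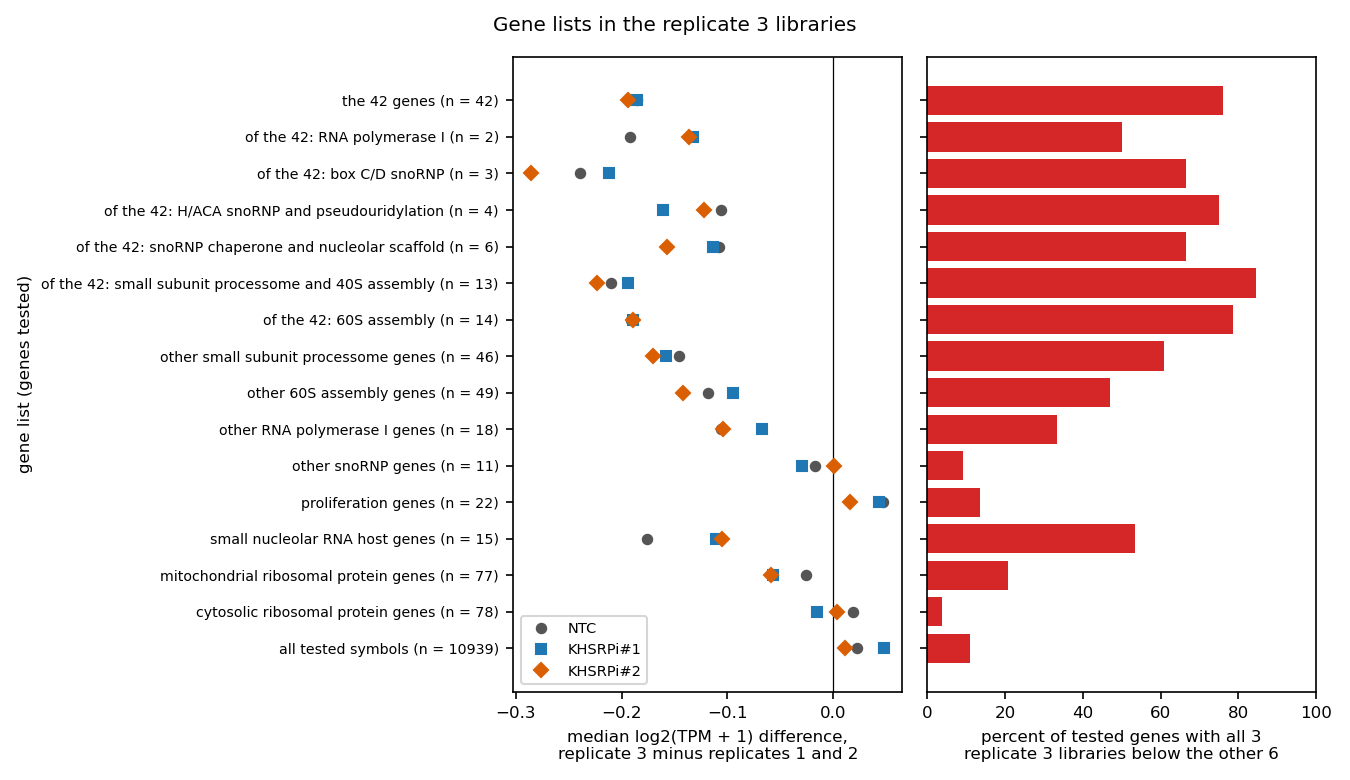
Left, median log2(TPM + 1) difference of each gene list, replicate 3 minus replicates 1 and 2, in NTC, guide 1 and guide 2; right, percent of each list's tested genes with all 3 replicate 3 libraries below the other 6. The 42 genes lie near -0.19 in each group, other processome genes at -0.15 over the groups, and cytosolic ribosomal protein genes at 0.00.

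Other measures differed between the same libraries. MYC was at 224, 220 and 227 TPM in replicate 3 and 177 to 194 TPM in the others, a log2 difference of 0.25. Only the share of its mRNA was measured, and whether MYC bears on the levels of the members was not tested. For the knockdown the log2 fold change of MYC was -0.01 (adjusted p = 0.994, limma). The list of 22 proliferation genes had a median of 0.02 (-0.01 with median ratios), with 3 separated downwards and 7 upwards. That of 18 immediate early and stress genes had 0.06 (0.00 with quantiles), with 2 downwards and 4 upwards.

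Of the 12 plasmacytoid dendritic cell markers 10 were tested, with a median of -0.18, and 2 separated downwards and 3 upwards. NRP1 (-0.45) and SPIB (-0.38) separated downwards, and IRF8 (0.24), NCAM1 (0.21) and CD4 (0.10) upwards. GZMB (-0.75), CLEC4C (-0.34) and IRF7 (-0.31) were lowest in replicate 3 within every group, but overlapped across groups. TCF4 (-0.05) and TCL1A (0.05) also overlapped. The list's summed level, most of it IRF8, was 4304 to 4465 TPM in replicate 3 and 3784 to 4312 TPM in the others. The monocyte and neutrophil list was at 36.9 to 41.98 TPM in replicate 3 and 59.4 to 91.0 TPM in the others, nearly all of it LYZ, with S100A8 and S100A9 listed at 0 throughout. The B cell list was at 4.90 to 5.49 TPM in replicate 3 and 3.63 to 4.51 TPM in the others, carried by PAX5 (log2 difference 0.21) and CD79A (0.42), which both separated upwards, with MS4A1 at most 0.0259 TPM in any library. The epithelial and fibroblast list was at 3.53 to 3.80 TPM and 2.38 to 3.47 TPM. Its highest gene was KRT8, at a mean of 1.96 TPM. DCN had a mean of 0.657 TPM, COL1A1 0.377 and CDH1 0.231, with EPCAM, KRT18 and COL1A2 listed at 0. The part of depth, of any of these genes or of an unlabelled difference in handling in the lower levels of the 42 genes was not tested.

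Features of the genes that the selection did not use were set beside the replicate 3 values. By the GENCODE 29 annotation, 7 of the 42 have snoRNA genes inside them (NCL, NOP56, NOP58, DKC1, WDR43, GNL3 and PPAN), with 25 snoRNA genes in all, where 1.99% of 10417 tested symbols with a position have any. The snoRNAs are spliced-out products of the hosts' introns, so these genes supply both protein and guide RNA to the nucleolus. Their median log2 difference was -0.19 and that of the other 35 genes -0.18. The 42 genes lie on 18 chromosomes, 8 of them on chromosome 2.

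The motif shown above was set beside the replicate 3 values in the same way. Whether it bears on them was not tested. The 17 genes with CACGTG had a median log2 difference of -0.20, with 13 separated downwards, and the 17 genes with a window and no match had -0.18, with 12. NOP2 and UTP14A hold it and were among the 4 lowest, whereas FBL, NOC3L, PUS7 and UTP20 hold it and overlapped.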

How the data were processed

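The deposited table holds TPM per gene symbol for 9 libraries, with each column summing to 1000000. Libraries were made from total RNA, per the labels' protocols, and the submitters' processing notes name hg38 as the build. The deposited table's own name holds the word STAR, an aligner; the sources used here do not give its version and settings, the counter, the annotation or the strand setting. TPM keeps no read totals, so no count test was used.

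Groups and replicate numbers came from the titles. The 42 genes and all lists were chosen with earlier results of these data known. Symbols with a mean TPM of at least 1 (10939) were fitted as log2(TPM + 1), with a pseudocount of 1, in limma 3.58.1 (R 4.3.3, eBayes with trend, two-sided), all 3 groups in 1 fit without covariates. Benjamini-Hochberg adjustment ran over all 10939. The script was tested on simulated data. Replicate 3 differences are means over groups of replicate 3 minus the mean of replicates 1 and 2. No 2 libraries were identical.

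Genes named with every library are the 3 most abundant, the 4 largest fold changes per direction, and the 4 largest and 2 smallest replicate 3 differences. Alternatives were other pseudocounts (0.1 and 5), no filter or a mean TPM of at least 5, median-ratio and quantile scaling, a replicate block, a replicate 3 term, robust eBayes, fits of only the groups compared, replicates 1 and 2 alone, and leaving out each library or group. Positions are from GENCODE 29, promoter windows from RefSeq. Python 3.11.15 with pandas 2.3.3, numpy 2.4.6 and matplotlib 3.10.9 drew the figures.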

Additional observations from a re-analysis of the deposited data

How the results depend on the processing

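No member was called in any of the 4 knockdown comparisons under any alternative run, and the lowest adjusted p for the mean of the guides was 0.140 (limma, with the replicate 3 term). With the replicate block limma also called 0 of the 42 members, where 152 of 10939 tested symbols were called. The lowest adjusted p of a member in that limma fit was 0.178. The replicate numbers were not taken as pairs: deviations of same-numbered libraries had correlations from 0.04 (NTC and guide 2 replicate 1) to 0.63 (replicate 3 of both guides), and 3 of 9 libraries correlated best with their own number, a hint from the data and not from the design. PPAN had no value at the filter of 5 TPM. The count of members with knockdown libraries beyond the controls was 0, and 1 with median-ratio rescaling or quantile normalization (TCOF1, below). The share of all tested symbols was not computed with these scalings, so the 1 cannot be set against it. The count was 11 with replicates 1 and 2 only, and 0 to 5 when a library was left out. The median replicate 3 difference was -0.22 with median ratios, -0.17 with quantiles and -0.18 with a pseudocount of 5, and -0.20 to -0.17 without a library. Of the 16 named genes, 8 kept the sign of their log2 fold change in every setting. NPM1 was at -0.0172 with median ratios and -0.00533 with quantiles, and NCL at 0.0117 with replicates 1 and 2 only. Leaving out a library gave ranges of -0.0416 to 0.0511 for NPM1, -0.0442 to 0.0233 for NCL, -0.118 to 0.00642 for BOP1, -0.18 to 0.0379 for NOP56, -0.14 to 0.033 for NOP2, -0.141 to 0.0546 for GRWD1, -0.0544 to 0.0989 for UTP14A, -0.00178 to 0.0891 for DDX10 and -0.05 to 0.05 for the median of the 42 genes. Among the genes that kept their sign, values also moved by over 1.5 times: 0.0242 to 0.14 for DDX18, 0.0815 to 0.247 for PPAN, 0.0998 to 0.263 for UTP20, 0.0571 to 0.138 for NOC3L, 0.0226 to 0.0603 for FBL, -0.209 to -0.038 for RRS1 and -0.126 to -0.0242 for MYBBP1A, with TCOF1 at -0.101 to -0.0692 the exception. The ends of these 7 ranges came from leaving out an NTC library. None of these values was called. The causes of these shifts were not tested. Leaving out any 1 library, of replicate 3 or not, leaves groups of unequal size. Read depth is unknown, so precision rests on 3 libraries per group.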

Other observations

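Genes that host snoRNAs without coding for protein were not among the 42, though their products join the same snoRNPs. All 15 tested members of that list (the SNHG genes with GAS5, ZFAS1 and EPB41L4A-AS1) were set beside the 42. For the mean of the guides their median log2 fold change was -0.08, where all tested symbols had 0.02, with 2 of 15 above 0. None was called (limma, 0 of 15), where 0.0823% of all tested symbols were. An unadjusted p under 0.05 was held by 3, where 7.93% of all tested symbols lay. With the replicate 3 term or the replicate block limma also called 0, where 192 and 152 of 10939 tested symbols were called. With that term 5 had an unadjusted p under 0.05, where 17.5% lay, and the lowest adjusted p was 0.063. Within replicate numbers, the mean of the guides was below the control in all 3 numbers for 7, where 16.1% were. It was above in all 3 for 0, where 23.3% were. In the replicate 3 libraries the median difference of these 15 genes was -0.13. Of them 8 separated downwards, where 11% of all tested symbols did, and 0 upwards, where 16.5% did. The rows of the 45S ribosomal RNA precursor were at most 0.044 TPM in any library, so the precursor that the 42 genes act on was not measured here.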
